A study of Mus musculus with 12 samples.

Results

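Imprinted genes are transcribed mainly from the copy inherited from one parent, and many of them set the growth of the fetus, the placenta and stem cells. A list of 10 such genes was followed here in mouse astrocytes: Nnat, H19, Dlk1, Peg3, Mest, Plagl1, Cdkn1c, Meg3, Grb10 and Ndn. The genes were chosen as known imprinted growth genes after earlier results of the same arrays had been seen, so their values are a description, with no p-value, and "called" is used of them only to place them beside the share of all genes past the same threshold. Of the 10 genes, 9 had a probe set annotated to that gene alone, and they had 35 such probe sets among 45037. The probe set of H19 is annotated to 2 genes, H19 and Mir675, so H19 has no value here. The 9 genes were read within a fit over 18193 genes.

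The cells were eGFP-expressing astrocytes cultured from hippocampus and cortex of C57Bl/6j mice and laid on a mouse brain section for 22 h. The adult APdE9 group held astrocytes of mice aged 6 to 8 weeks on sections of tg APdE9 mice, and the adult WT group held the same cells on sections of wild-type littermates. The neonatal APdE9 group held astrocytes of mice aged 3 days on tg APdE9 sections, and the neonatal WT group held those cells on wild-type sections. APdE9 mice carry chimeric mouse/human APPSwe and PS1-dE9 transgenes, each under a mouse prion protein promoter element, and only the section, never the astrocytes, carried them. Each group had 3 arrays, and samples were pooled in sets of 3 before RNA was isolated, per the labels. Cultures of adult cells used Percoll at isolation, DMEM/F12 and a G5 supplement. Those of neonatal cells used DMEM and neither addition, so age cannot be told apart from culture conditions. The astrocytes were picked off the section by suction under fluorescence. In such bulk samples fewer cells of a type and less RNA per cell cannot be told apart.

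The 9 measured genes fall into 2 sets by the parental copy that mouse tissues use. Nnat, Mest, Ndn, Peg3, Plagl1 and Dlk1 are expressed from the paternal copy, and Cdkn1c, Meg3 and, in most tissues, Grb10 are expressed from the maternal copy. In mouse neurons Grb10 is expressed from the paternal copy. Several paternally expressed genes favour growth in the mouse embryo, and the maternally expressed Cdkn1c and Grb10 restrain it. The arrays read the total of both copies, so they do not show which parental copy was used.

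A promoter window from RefSeq, 250 bases before and 50 after the annotated start, was matched for 8 of the 10 genes. A filter left out any window on a particular chromosome, which holds none of the measured genes, and 12 windows were kept. Cdkn1c and H19 were not matched. The windows printed are those of the genes with the widest differences by age (Nnat), by section in adult cells (Meg3), and of the growth adaptor Grb10. Coordinates are those of build GRCm38.p6. Capitals mark CG pairs, the sites of DNA methylation, which distinguishes the parental copies at imprinted loci. Methylation was not measured here, so the printed windows are not shown to carry such a mark.

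Nnat promoter, chr2:157559828-157560127, plus strand: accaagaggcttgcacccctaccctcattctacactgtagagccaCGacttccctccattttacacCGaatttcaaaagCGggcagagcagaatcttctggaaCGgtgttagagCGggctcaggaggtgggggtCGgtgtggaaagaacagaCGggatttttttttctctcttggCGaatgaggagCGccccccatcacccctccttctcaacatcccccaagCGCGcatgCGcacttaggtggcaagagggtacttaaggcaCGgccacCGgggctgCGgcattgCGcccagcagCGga
Meg3 promoter, chr12:109540746-109541045, plus strand: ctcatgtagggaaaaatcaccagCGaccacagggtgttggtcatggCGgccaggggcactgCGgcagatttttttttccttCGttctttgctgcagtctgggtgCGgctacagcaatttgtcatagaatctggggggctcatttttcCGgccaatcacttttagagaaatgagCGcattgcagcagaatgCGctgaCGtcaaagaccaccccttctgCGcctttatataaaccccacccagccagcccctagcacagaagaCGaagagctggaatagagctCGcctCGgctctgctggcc
Grb10 promoter, chr11:12037371-12037670, minus strand: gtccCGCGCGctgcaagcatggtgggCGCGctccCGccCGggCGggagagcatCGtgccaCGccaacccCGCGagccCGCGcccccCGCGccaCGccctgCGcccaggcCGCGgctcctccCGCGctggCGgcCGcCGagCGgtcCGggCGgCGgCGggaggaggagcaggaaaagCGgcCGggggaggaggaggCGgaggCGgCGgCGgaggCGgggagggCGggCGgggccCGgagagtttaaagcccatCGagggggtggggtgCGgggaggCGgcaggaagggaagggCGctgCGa

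The printed Grb10 window held 45 CG pairs, more than 98.1% of the 32851 windows in the table, and the other Grb10 window held 9 (more than 54.2%). The Nnat window held 17 (more than 68.6%). The printed Meg3 window held 13 and the other Meg3 window 1, more than 62.1% and 5.43% of all windows. The 12 windows of the listed genes ranged from 1 to 45 CG pairs with a median of 13, against a median of 7 over all windows. Both strands were searched for 4 motifs. These were the core promoter motif TATAAA, the cyclic AMP response element TGACGTCA, the E-box motif CACGTG and the GC-box motif CCGCCC. In the printed Meg3 window TGACGTCA began 57 bases before the start, and TATAAA began 25 bases before it, overlapping a copy on the other strand. TGACGTCA was in 1.79% of all windows and TATAAA in 13.6%. The Peg3 window also held TGACGTCA, 178 bases before its start, and the printed Grb10 window held 5 copies of CCGCCC, which is in 35.7% of all windows. A match describes these letters and is not evidence that a factor binds.

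Values are centred log2 signals. The deposited table had each probe set centred on its median over the 12 arrays, so 0 is a gene's own median, a difference of 1 is a 2-fold change, and levels of different genes cannot be set against each other. A gene was called where its adjusted p in limma was under 0.05 over all genes. Within a group, pairs of arrays correlated at 0.57 to 0.88 over genes. Across all 18193 genes, 17.7% were called between sections in adult cells and 3.76% in neonatal cells. The difference between those section effects was called for 10.1%. Between ages, 23.5% were called on APdE9 sections and 30.1% on WT sections. These shares are the background for the counts that follow.

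Nnat encodes neuronatin, a small proteolipid of the endoplasmic reticulum membrane, and lies inside an intron of Blcap. It was lowest in adult cells, with -1.42, -1.15 and -1.31 in adult APdE9 arrays and -1.08, -0.89 and -1.29 in adult WT arrays. It was 0.89, 0.99 and 1.18 in neonatal APdE9 arrays and 2.56, 2.59 and 2.67 in neonatal WT arrays. The 2 adult groups overlapped, the neonatal groups did not overlap each other, and both lay above every adult array. Adult minus neonatal was -2.31 ± 0.11 (SE, n = 3 arrays per group here and throughout) on APdE9 sections, a 4.96-fold lower signal, and -3.69 ± 0.11 on WT sections, 12.9-fold lower. Between sections Nnat was -1.59 ± 0.11 in neonatal cells, 3.01-fold lower on APdE9, and -0.21 ± 0.11 in adult cells. The difference of these section effects, adult minus neonatal, was 1.38 ± 0.16. Blcap, whose transcript overlaps Nnat, was not called in any of the 5 comparisons, and its 12 arrays spanned -0.17 to 0.26.

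**Figure D1:**
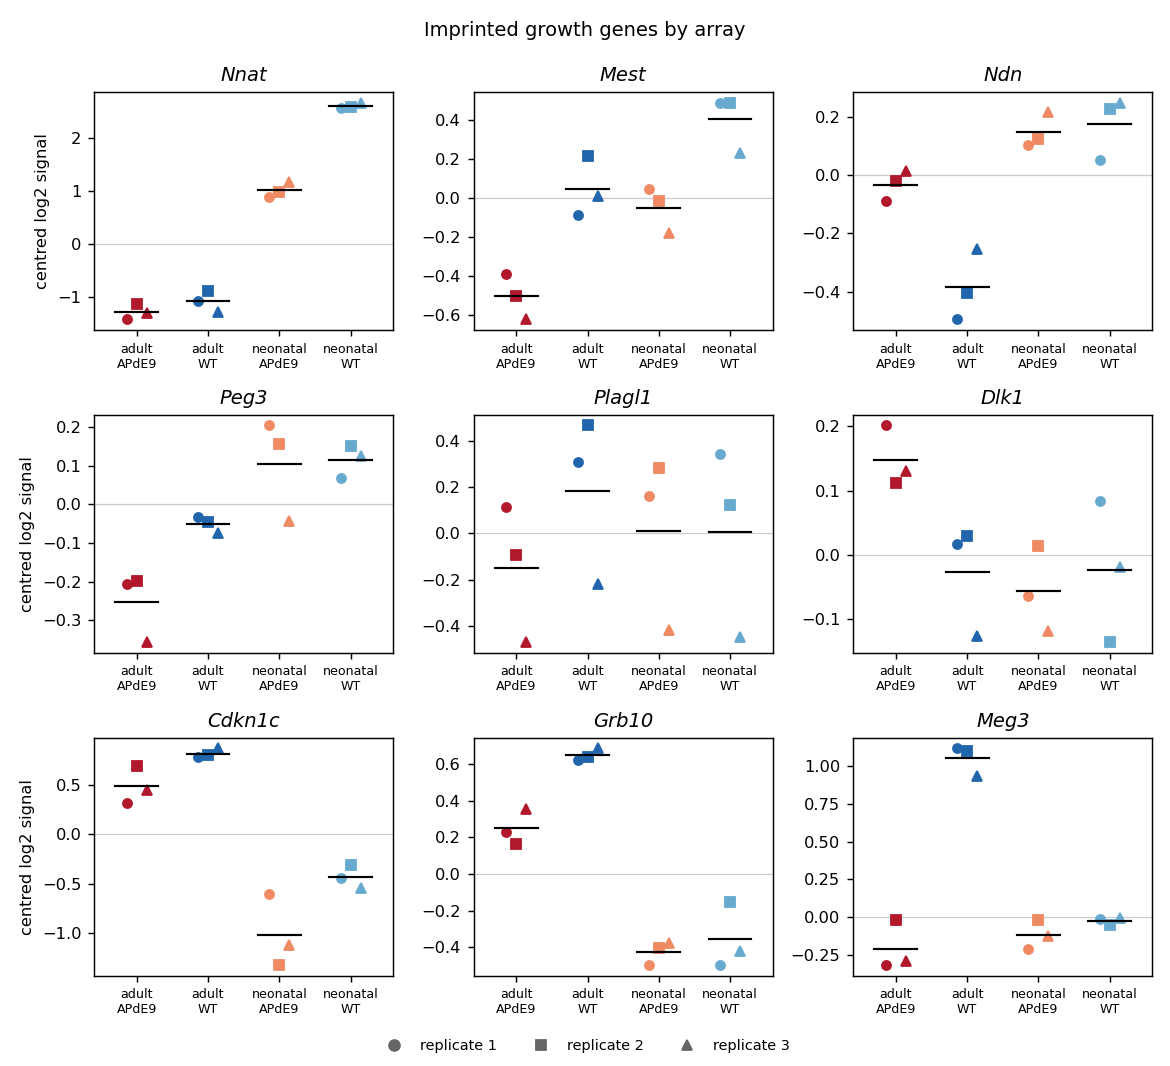
Centred log2 signal (vertical axes, each with its own range) of the 9 measured imprinted growth genes in the 4 groups of 3 arrays, with markers for replicate numbers and a bar at each group mean. Nnat is above 2.5 in all 3 neonatal WT arrays and below -0.8 in all 6 adult arrays, and Meg3 is above 0.9 in the adult WT arrays.

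Mest encodes a protein of the alpha/beta hydrolase fold and is among the paternally expressed genes of mouse embryonic mesoderm. It was -0.39, -0.50 and -0.62 in adult APdE9 arrays and -0.09, 0.22 and 0.01 in adult WT arrays. It was 0.05, -0.01 and -0.18 in neonatal APdE9 arrays and 0.49, 0.49 and 0.23 in neonatal WT arrays. At either age each APdE9 array was below each WT array. APdE9 minus WT was -0.55 ± 0.11 in adult cells (1.46-fold lower) and -0.45 ± 0.11 in neonatal cells (1.37-fold lower), and the difference of the section effects was -0.10 ± 0.15. Mest was also lower in adult cells than in neonatal cells, by -0.45 ± 0.11 on APdE9 and -0.36 ± 0.11 on WT sections. Its neonatal section call was lost when the fit used only the 6 neonatal arrays, when each gene was read from its probe set of the largest SD, or when any one of 7 arrays was left out. Those arrays were replicates 1, 2 and 3 of neonatal APdE9, replicates 1 and 2 of neonatal WT, adult APdE9 replicate 2 and adult WT replicate 3, and the difference without one of them was -0.50 to -0.39. Its age call on WT sections was lost without adult WT replicate 1 or 3 or neonatal WT replicate 1 or 2 (differences of -0.29, -0.34, -0.31 and -0.31).

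Ndn encodes necdin, a MAGE-family protein that restrains the growth of postmitotic neurons. Its values were -0.09, -0.02 and 0.01 in adult APdE9 arrays and -0.49, -0.40 and -0.25 in adult WT arrays. They were 0.10, 0.12 and 0.21 in neonatal APdE9 arrays and 0.05, 0.23 and 0.25 in neonatal WT arrays. The adult WT arrays were below all 9 others. APdE9 minus WT was 0.35 ± 0.09 in adult cells and -0.03 ± 0.09 in neonatal cells, and adult minus neonatal was -0.18 ± 0.09 on APdE9 and -0.56 ± 0.09 on WT sections (1.47-fold lower). All 8 probe sets of Ndn were higher on APdE9 in adult cells (0.13 to 0.56), and in neonatal cells 2 were higher and 6 lower. The adult section call was lost without adult WT replicate 1 (difference 0.30) or replicate 2 (0.34). The difference of the section effects of Ndn, 0.38, was not called. It was called with array weights (0.42), the replicate number as a block (0.38) or the probe set of the largest SD (0.64). Leaving out adult WT replicate 3 or neonatal WT replicate 1 also gave a call (0.44 each).

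Peg3 and Plagl1 encode zinc-finger transcription factors, and Plagl1 also arrests the cell cycle. Peg3 was -0.21, -0.20 and -0.36 in adult APdE9 arrays and -0.03, -0.05 and -0.07 in adult WT arrays, against 0.20, 0.16 and -0.04 in neonatal APdE9 arrays and 0.07, 0.15 and 0.12 in neonatal WT arrays. Its adult minus neonatal difference was -0.36 ± 0.08 on APdE9 and -0.16 ± 0.08 on WT sections, and APdE9 minus WT was -0.20 ± 0.08 in adult cells and -0.01 ± 0.08 in neonatal cells. The adult APdE9 arrays were the lowest 3 of the 12. With age on APdE9 sections all 5 probe sets of Peg3 were lower (-0.90 to -0.017). On WT sections 3 of them were lower with age and 2 higher (-0.50 to 0.24). The age difference on WT was called only with array weights (-0.19) or the probe set of the largest SD (-0.50). Plagl1 was 0.11, -0.09 and -0.47 in adult APdE9 arrays and 0.31, 0.47 and -0.22 in adult WT arrays. It was 0.16, 0.28 and -0.42 in neonatal APdE9 arrays and 0.34, 0.12 and -0.45 in neonatal WT arrays. Replicate 3 was the lowest array of Plagl1 in all 4 groups, by -0.45 to -0.32 from the group mean, and replicates 1 and 2 were 0.06 to 0.34 above it. Its 4 group means were closer together than these replicates, and its section difference in adult cells was -0.33 ± 0.25. That error takes no account of the replicate number. With the replicate number as a block the same difference of -0.33 was called, though the pairing criterion given below was not met in adult cells.

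Dlk1 encodes a membrane protein with EGF repeats that resembles Notch ligands and keeps precursor cells undifferentiated. It was 0.20, 0.11 and 0.13 in adult APdE9 arrays and 0.02, 0.03 and -0.13 in adult WT arrays. It was -0.06, 0.01 and -0.12 in neonatal APdE9 arrays and 0.08, -0.14 and -0.02 in neonatal WT arrays. The adult APdE9 arrays were the highest 3, and the other groups overlapped. APdE9 minus WT was 0.17 ± 0.08 in adult cells and -0.03 ± 0.08 in neonatal cells, and adult minus neonatal was 0.20 ± 0.08 on APdE9 and -0.0028 ± 0.081 on WT sections. Dlk1 was called in none of the 5 comparisons, though with the probe set of the largest SD the age difference on APdE9 was 0.47 and was called. The other of its 2 probe sets had the opposite sign there, -0.06 ± 0.12.

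Cdkn1c encodes a cyclin-dependent kinase inhibitor that holds cells out of the cycle. It was 0.31, 0.68 and 0.45 in adult APdE9 arrays and 0.77, 0.80 and 0.87 in adult WT arrays. It was -0.61, -1.32 and -1.11 in neonatal APdE9 arrays and -0.44, -0.31 and -0.55 in neonatal WT arrays. Every adult array was above every neonatal array, and at either age the APdE9 arrays were below the WT arrays. Adult minus neonatal was 1.49 ± 0.16 on APdE9 (2.82-fold higher) and 1.24 ± 0.16 on WT sections (2.37-fold higher). APdE9 minus WT was -0.33 ± 0.16 in adult cells and -0.58 ± 0.16 in neonatal cells. Neither section difference was called. The neonatal one was called with array weights (-0.74) and without neonatal APdE9 replicate 1 (-0.78).

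Grb10 encodes an adaptor that binds the insulin and insulin-like growth factor receptors and dampens their signal. It was 0.23, 0.16 and 0.35 in adult APdE9 arrays and 0.62, 0.64 and 0.68 in adult WT arrays. It was -0.50, -0.40 and -0.38 in neonatal APdE9 arrays and -0.50, -0.15 and -0.42 in neonatal WT arrays. Adult cells were above neonatal cells on either section, by 0.67 ± 0.09 on APdE9 (1.60-fold) and 1.01 ± 0.09 on WT (2.01-fold). APdE9 minus WT was -0.40 ± 0.09 in adult cells, 1.32-fold lower, and -0.07 ± 0.09 in neonatal cells. All 3 probe sets were lower on APdE9 in adult cells (-0.70 to -0.12), and in neonatal cells 2 were higher and 1 lower. The adult section call was lost under quantile normalization (-0.34) and without adult APdE9 replicate 2 (-0.36).

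Meg3 is a long non-coding RNA of the Dlk1-Meg3 domain, where the maternal copy makes non-coding RNAs and the paternal copy makes Dlk1. It was -0.32, -0.02 and -0.29 in adult APdE9 arrays and 1.12, 1.10 and 0.94 in adult WT arrays. It was -0.21, -0.02 and -0.13 in neonatal APdE9 arrays and -0.01, -0.05 and -0.0047 in neonatal WT arrays. The 3 adult WT arrays stood above the 9 others, which lay between -0.32 and -0.0047. APdE9 minus WT was -1.26 ± 0.09 in adult cells, 2.40-fold lower, and -0.10 ± 0.09 in neonatal cells, with a difference of section effects of -1.17 ± 0.13. Adult minus neonatal was -0.09 ± 0.09 on APdE9 and 1.08 ± 0.09 on WT sections, 2.11-fold higher. All 11 probe sets were lower on APdE9 in adult cells (-2.35 to -0.26) and higher in adult than neonatal cells on WT (0.46 to 1.88). In neonatal cells 5 were higher on APdE9 and 6 lower.

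**Figure D2:**
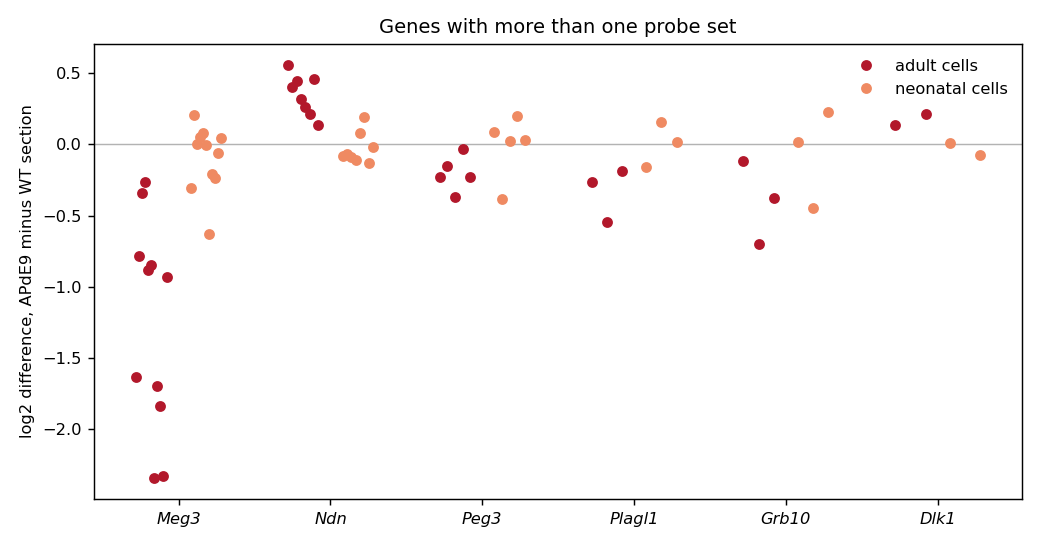
Log2 difference, APdE9 minus WT section, for single probe sets (points) of the 6 imprinted growth genes with more than 1 probe set, in adult and neonatal cells. All 11 Meg3 probe sets are below 0 and all 8 Ndn probe sets above 0 in adult cells, and the neonatal points lie on both sides of 0.

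The counts over the 9 genes were as follows. Between sections in adult cells 4 were called, against 17.7% of all genes. Ndn was higher on APdE9, as were 8.26% of all genes, and Mest, Grb10 and Meg3 were lower, as were 9.40%. In neonatal cells 2 were called, Nnat and Mest, both lower on APdE9, against 3.76% of all genes called, 1.21% higher and 2.55% lower. The difference of the section effects was called for 2, positive for Nnat and negative for Meg3, against 10.1% of all genes, 5.19% positive and 4.88% negative. Between ages on APdE9 sections 5 were called, against 23.5%. Cdkn1c and Grb10 were higher in adult cells, against 11.7% of all genes, and Nnat, Mest and Peg3 lower, against 11.9%. On WT sections 6 were called, against 30.1%. Cdkn1c, Meg3 and Grb10 were higher in adult cells, against 14.9%, and Nnat, Mest and Ndn lower, against 15.2%. The arrays of the compared groups did not overlap for 7 of the 9 genes between sections in adult cells (36.0% of all genes) and for 3 in neonatal cells (17.7%). Between ages they did not overlap for 7 on APdE9 (37.2%) and 7 on WT sections (42.0%). Since the list was chosen with these comparisons known, nothing is read from the counts. The median difference of the 9 genes was -0.33 between sections in adult cells and -0.07 in neonatal cells, beside 0.05 and 0.00175 over all genes. It was -0.16 between ages on APdE9 and -0.0028 on WT sections, beside 0.05 and 0.01. The section comparison in adult cells and the age comparison on WT share the adult WT arrays, so a gene that stands apart in those arrays has opposite signs in them.

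**Figure D3:**
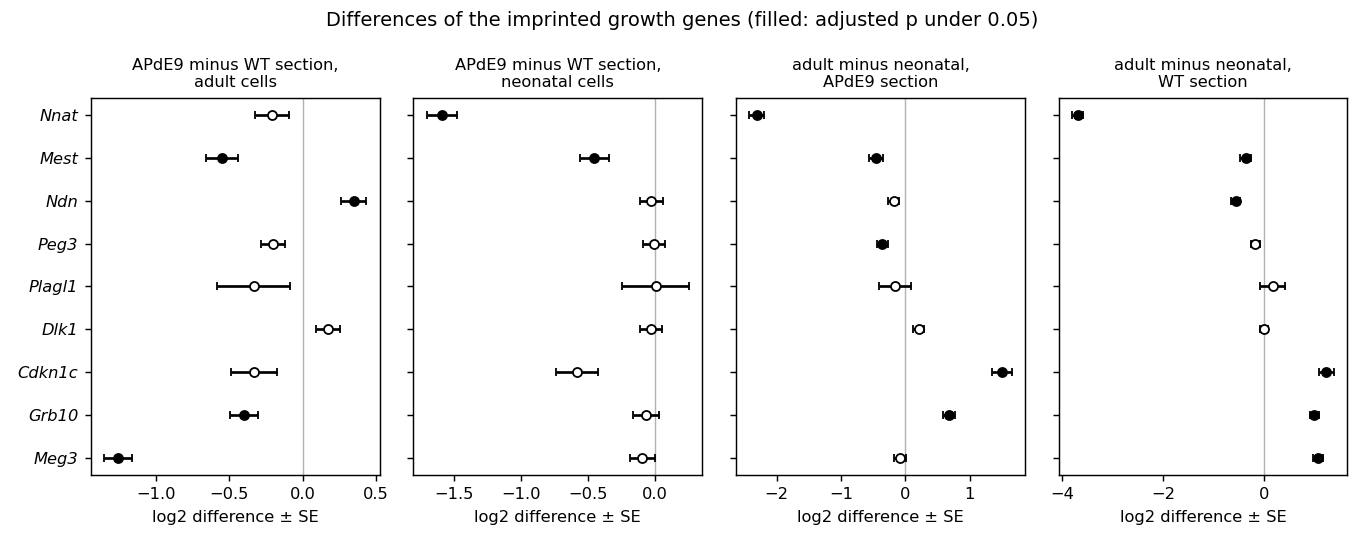
Log2 differences with standard errors (bars) of the 9 measured genes in 4 comparisons, one per panel with its own axis; filled points have a limma adjusted p under 0.05 over all genes. Between ages, Nnat is the widest at -2.31 and -3.69, and Cdkn1c and Grb10 lie above 0 on both sections.

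Neighbouring genes were read in the same fit. The 2 nearest measured genes on each side of the 9 genes gave 32 different genes outside the list. Of these, 3 rose and 5 fell on APdE9 in adult cells (25% called, against 17.7% of all genes). None was called in neonatal cells by limma, against 3.76% of all genes. An unadjusted p under 0.05 was found there for 1 of the 32 and for 2695 of all 18193 genes. With the replicate number as a block, 1 neonatal neighbour, Copg2, was called. Between ages 3 rose and 2 fell on APdE9 sections (15.6%, against 23.5%), and 4 rose and 2 fell on WT sections (18.8%, against 30.1%).

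Rian, the next non-coding RNA of the Dlk1-Meg3 domain and a host of small nucleolar RNAs, was -0.66, 0.04 and -0.04 in adult APdE9 arrays and 1.52, 1.87 and 1.35 in adult WT arrays. It was -0.27, 0.46 and -0.04 in neonatal APdE9 arrays and -0.20, -0.02 and -0.11 in neonatal WT arrays. As for Meg3, the adult WT arrays stood above the 9 others. Rian fell by 1.80 ± 0.21 on APdE9 in adult cells, 3.48-fold (limma adjusted p = 9.28e-05), and the neonatal difference was 0.16 ± 0.21 (adjusted p = 0.864). The difference of the section effects was -1.96 ± 0.30 (adjusted p = 0.00144). Its 4 probe sets were all lower in adult APdE9 arrays (-2.42 to -1.32). Mirg, the microRNA host further along, was -0.34 in the adult section comparison and did not pass (adjusted p = 0.0813). Meg3, Rian and Mirg had their highest group mean in adult WT arrays, and Dlk1 had its highest in adult APdE9 arrays. Whether these transcripts come from one primary transcript was not tested.

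**Figure D4:**
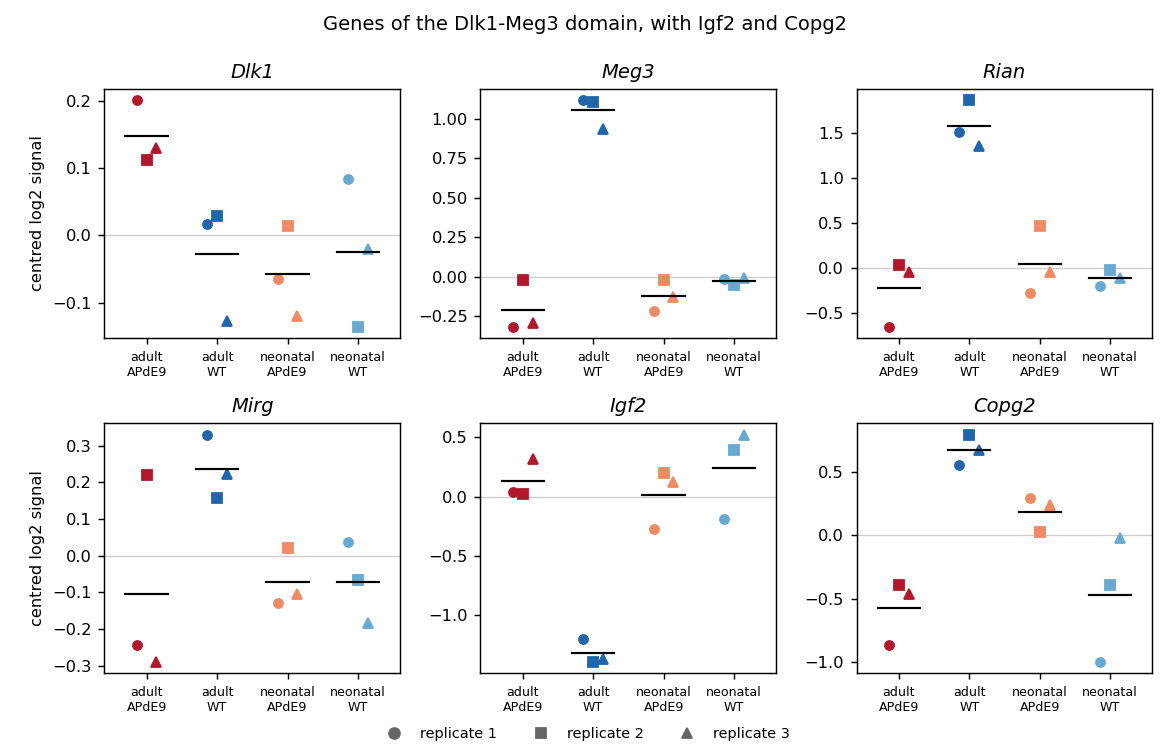
Centred log2 signal by array for Dlk1, Meg3, Rian and Mirg of the Dlk1-Meg3 domain, and for Igf2 and Copg2, in the 4 groups (markers give replicate numbers, bars the group means, each panel its own vertical range). Meg3 and Rian are above 0.9 in the 3 adult WT arrays and below 0.5 in the others, and Igf2 is below -1.2 in the adult WT arrays alone.

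Copg2, which encodes a coat protein of Golgi vesicles, overlaps the end of Mest. It was -0.86, -0.39 and -0.46 in adult APdE9 arrays and 0.55, 0.79 and 0.67 in adult WT arrays, and fell by 1.25 ± 0.20 on APdE9 in adult cells (limma adjusted p = 0.00112). In neonatal cells it was 0.30, 0.02 and 0.23 on APdE9 and -0.999, -0.39 and -0.02 on WT. Its neonatal difference was 0.66 ± 0.20 (adjusted p = 0.116, and 0.0473 with the replicate block). Mest was lower on APdE9 at both ages, and Copg2 was lower in adult APdE9 arrays with the opposite sign in neonatal ones. The difference of the section effects of Copg2 was -1.90 ± 0.29 (adjusted p = 0.00144).

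Next to Cdkn1c lie Slc22a18, an organic cation transporter gene, and Phlda2, which limits placental growth in the mouse. Slc22a18 was 0.70, 0.80 and 0.81 in adult APdE9 arrays and 0.35, 0.32 and 0.25 in adult WT arrays, against -0.57, -0.44 and -0.28 in neonatal APdE9 and -0.29, -0.24 and -0.55 in neonatal WT arrays. Phlda2 was 0.62, 0.43 and 0.72 in adult APdE9 arrays and 0.01, 0.04 and -0.01 in adult WT arrays, and all 6 neonatal arrays lay between -0.34 and 0.05. Both genes were highest in adult APdE9 arrays. They rose on APdE9 in adult cells by 0.46 ± 0.10 and 0.57 ± 0.10 (limma adjusted p = 0.00618 and 0.00181), and Cdkn1c there was -0.33 ± 0.16. With age on APdE9 sections Slc22a18 rose 2.29-fold and Phlda2 1.62-fold (adjusted p = 1.87e-06 and 0.000243). A locus known only as LOC102631979 overlaps Grb10. It fell by 0.83 ± 0.23 on APdE9 in adult cells and rose with age on WT sections by 1.93 ± 0.23 (adjusted p = 0.0268 and 3.74e-05), the directions of Grb10, and the overlap means that probes of the pair may not be separate. Its adult section call was lost in 5 of the fits that left out 1 array (adjusted p up to 0.0995, without adult APdE9 replicate 1) and under quantile normalization (0.220).

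Igf2, the paternally expressed growth factor, and Igf2r, the maternally expressed receptor that clears it, were read beside the list. Igf2 was 0.04, 0.02 and 0.32 in adult APdE9 arrays and -1.20, -1.40 and -1.37 in adult WT arrays. It was -0.27, 0.20 and 0.12 in neonatal APdE9 arrays and -0.19, 0.39 and 0.52 in neonatal WT arrays. The adult WT arrays were the low ones. Igf2 rose by 1.45 ± 0.18 on APdE9 in adult cells, 2.73-fold (limma adjusted p = 0.000125), and the neonatal difference was -0.23 ± 0.18 (adjusted p = 0.678). The difference of the section effects was 1.68 ± 0.25 (adjusted p = 0.00131), and Igf2 fell by 1.57 ± 0.18 with age on WT sections (adjusted p = 2.12e-05). Its 2 probe sets differed in size, 0.89 and 2.01, in the adult section comparison. Igf2r rose by 0.48 ± 0.13 with age on WT sections (adjusted p = 0.0155), and its adult section difference of -0.30 ± 0.13 did not pass (adjusted p = 0.144). The age call of Igf2r was lost in 2 of 12 fits without 1 array (adjusted p up to 0.0677, without adult WT replicate 1) and under quantile normalization (0.0504).

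Beyond the list, 50 of 60 other imprinted genes were measured. Between sections in adult cells 8 rose and 5 fell on APdE9 (26.0% called, against 17.7% of all genes), and in neonatal cells 3 rose and 2 fell (10.0%, against 3.76%). Between ages 9 rose and 8 fell on APdE9 (34.0%, against 23.5%), and 9 rose and 11 fell on WT sections, 20 of 50, against 30.1%. No test compares these shares with the background.

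Among the 17 measured maternally expressed genes, 5 rose and 1 fell with age on WT sections (35.3% called, against 30.1% of all genes). Rian, Copg2, Gnas, Slc22a18 and Igf2r rose, by 0.48 to 1.69, and Asb4 fell by 0.47. On APdE9 sections 3 rose (Slc22a18, Phlda2 and H13) and 2 fell (Copg2 and Asb4), 29.4% called, against 23.5% of all genes. Without 1 array, the APdE9 age calls of H13 and Asb4 were lost in 9 of 12 fits each and that of Copg2 in 3 (adjusted p up to 0.166, without adult APdE9 replicate 2, 0.154, without neonatal APdE9 replicate 3, and 0.0700, without adult APdE9 replicate 1). Gnas, which encodes the stimulatory G protein alpha subunit and has transcripts of both parental kinds, fell by 0.57 ± 0.12 on APdE9 in adult cells (limma adjusted p = 0.00684).

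Among the 18 measured paternally expressed genes, 1 rose and 5 fell with age on WT sections (33.3% called, against 30.1% of all genes). Nap1l5, a nucleosome assembly protein gene, fell by 2.30 ± 0.13, and Slc38a4, an amino acid transporter gene, fell by 2.39 ± 0.16 (limma adjusted p = 3.82e-08 and 2.20e-07). Igf2, Mkrn3 and Snrpn fell too, and Rasgrf1, a guanine nucleotide exchange factor gene, rose by 0.44 ± 0.09. On APdE9 sections Nap1l5, Slc38a4 and Inpp5f fell, and Rasgrf1 and Mcts2 rose (27.8% called, against 23.5% of all genes). Without 1 array, the WT age calls of Snrpn and Mkrn3 were lost in 9 and 5 of 12 fits (adjusted p up to 0.184, without adult WT replicate 2, and 0.118, without neonatal WT replicate 3), and the APdE9 age call of Mcts2 in 2 (up to 0.0621, without neonatal APdE9 replicate 2). Nap1l5 was -0.84, -0.88 and -0.74 in adult APdE9 arrays and -0.77, -0.85 and -0.998 in adult WT arrays, against 0.93, 0.74 and 0.76 in neonatal APdE9 and 1.08, 1.60 and 1.59 in neonatal WT arrays. Slc38a4 was -1.14, -1.18 and -0.90 in adult APdE9 arrays and -0.71, -0.90 and -1.01 in adult WT arrays, against 0.89, 0.62 and 0.74 in neonatal APdE9 and 1.16, 1.48 and 1.90 in neonatal WT arrays. The order of the neonatal groups, APdE9 below WT, was that of Nnat for both genes. They fell on APdE9 in neonatal cells by 0.61 ± 0.13 and 0.76 ± 0.16 (adjusted p = 0.0207 and 0.0221), and both calls were lost under quantile normalization (adjusted p = 0.0679 and 0.0674). Inpp5f, an inositol phosphatase gene, rose there by 0.44 ± 0.10 (adjusted p = 0.0314). In the fit of the neonatal arrays alone, none of these 3 neonatal differences was called (adjusted p = 0.0962 for Nap1l5, 0.0875 for Slc38a4 and 0.119 for Inpp5f), and leaving out 1 array lost them in 4, 4 and 5 of 12 fits (up to 0.110 and 0.115 for Nap1l5 and Inpp5f without neonatal WT replicate 2, and 0.0891 for Slc38a4 without neonatal APdE9 replicate 2). With array weights the split of the paternally expressed genes by age on WT became 6 higher and 6 lower, and that of the maternally expressed genes 9 higher and 2 lower.

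**Figure D5:**
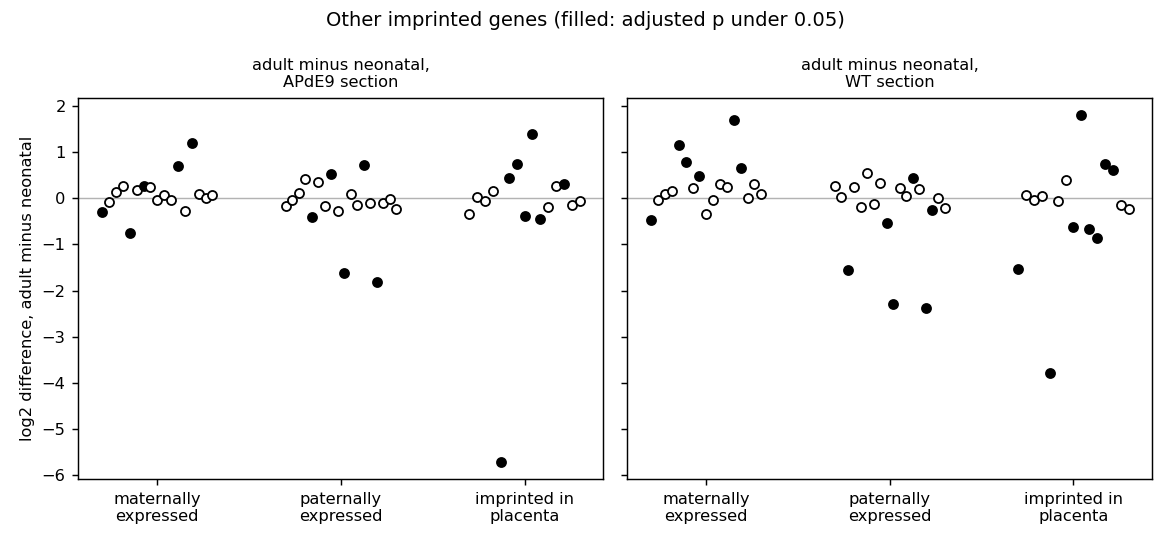
Log2 difference, adult minus neonatal, on APdE9 (left) and WT sections (right) for 50 imprinted genes outside the list (points), set out by expressed parental copy or imprinting in placenta; filled points have a limma adjusted p under 0.05. The paternally expressed Nap1l5 and Slc38a4 lie below -1.6 on both sections.

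Relatives of the 9 genes that are not known to be imprinted were read from the same fit, and no test compares their shares with the background. Of 12 relatives, 1 rose and 2 fell on APdE9 in adult cells, none was called in neonatal cells by limma (2 had an unadjusted p under 0.05), and with age 2 rose and 3 fell on APdE9 and 3 rose and 3 fell on WT sections. Grb14, the adaptor closest in kind to Grb10, was -0.05, -0.02 and 0.08 in adult APdE9 arrays and 0.77, 1.01 and 0.91 in adult WT arrays, against -0.27, -0.36 and -0.29 in neonatal APdE9 and -0.22, -0.02 and 0.03 in neonatal WT arrays. It fell by 0.89 ± 0.09 on APdE9 in adult cells and rose by 0.97 ± 0.09 with age on WT (limma adjusted p = 2.72e-05 and 3.86e-06). The adult WT arrays were the highest for Grb14 as for Grb10. Abhd6, a hydrolase of the same fold as Mest, rose by 0.53 ± 0.09 on APdE9 in adult cells (adjusted p = 0.00123), where Mest was -0.55 ± 0.11, and fell by 1.11 ± 0.09 with age on WT (adjusted p = 8.74e-07). Maged1, a MAGE-family gene like Ndn, fell by 0.32 ± 0.08 on APdE9 in adult cells (adjusted p = 0.0173), where Ndn was 0.35 ± 0.09. Of the family of Plagl1, Plag1 rose with age by 0.41 ± 0.07 on APdE9 and 0.26 ± 0.07 on WT (adjusted p = 0.000962 and 0.0140). Plagl2 fell with age by 0.65 ± 0.13 on APdE9 and 0.58 ± 0.13 on WT (adjusted p = 0.00267 and 0.00439). Dlk2 rose by 0.30 ± 0.10 and Maged2 fell by 0.45 ± 0.12 with age on WT, and Mageh1 fell by 0.48 ± 0.16 with age on APdE9 (adjusted p = 0.0418, 0.0158 and 0.0469). These 3 calls were lost in 8, 3 and 7 of 12 fits without 1 array (up to 0.159 without neonatal WT replicate 3, 0.0700 without adult WT replicate 1 and 0.146 without neonatal APdE9 replicate 1). Those of Plag1 on WT and of Maged1 were lost in 2 each (up to 0.0648, without adult WT replicate 1, and 0.0535, without adult WT replicate 2).

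The genes most like each listed gene over the 12 arrays were found by Pearson correlation, given as a description since the arrays form 4 groups. Nnat was most like Gpr37l1 (r = 0.995) and Gabrb1 (0.994). Cdkn1c was most like Galnt10 (0.979) and Rin1 (0.977), and Grb10 like Frzb (0.986) and Smoc2 (0.984). Meg3 was most like Ldb3 (0.977) and Rad51c (0.975), Mest like St8sia2 (0.972) and Fas (0.961), and Ndn like Ifi35 (0.976) and Ncdn (0.974). Peg3 was most like Slco1c1 (0.962) and Katnal1 (0.950), Plagl1 like Tmem88 (0.967) and Ifrd1 (0.961), and Dlk1 like Nwd2 (0.943) and Krt31 (0.903). Within the list, Cdkn1c and Grb10 were the most alike (r = 0.911), and Grb10 ran against Ndn (-0.861) and Nnat (-0.834). Meg3 also ran against Ndn (-0.839).

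Markers of cell types moved in the same comparisons. Their counts stand beside 17.7% of all genes called between sections in adult cells and 3.76% in neonatal cells. Between ages the background was 23.5% on APdE9 and 30.1% on WT sections. Of 15 astrocyte markers, 1 rose and 10 fell with age on APdE9 and 2 rose and 12 fell on WT sections, with medians of -1.03 and -1.04. Between sections in adult cells 5 rose and 4 fell on APdE9. In neonatal cells none rose and 6 fell on APdE9, among them Gfap at -1.02 ± 0.11 and Aldoc at -1.05 ± 0.08 (limma adjusted p = 0.000608 and 3.70e-05). The mean of the astrocyte list was -0.70 to -0.68 in adult APdE9 and -0.62 to -0.59 in adult WT arrays, and 0.46 to 0.61 in neonatal APdE9 and 0.89 to 0.95 in neonatal WT arrays. Of 12 ependymal and choroid plexus markers, none rose and 5 fell with age on APdE9 and none rose and 7 fell on WT. On APdE9, 4 fell in neonatal cells and 1 rose in adult cells. Their list mean was -0.31 to -0.20 in adult APdE9 and -0.34 to -0.31 in adult WT arrays, and 0.22 to 0.32 in neonatal APdE9 and 0.51 to 0.99 in neonatal WT arrays. For both lists, as for Nnat, the neonatal WT arrays were the highest, the neonatal APdE9 arrays came next and the adult arrays were the lowest. The part of these markers in its values was not tested.

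Of 16 measured microglial markers, 15 fell with age on APdE9 (93.8% called, against 23.5% of all genes). On WT sections 1 rose and 15 fell (100%, against 30.1%). The medians were -3.62 on APdE9 and -3.74 on WT. Between sections 6 rose and 1 fell on APdE9 in adult cells (43.8%, against 17.7%). In neonatal cells 3 rose on APdE9 and none fell (18.8%, against 3.76%). Their list mean was -1.55 to -1.48 in adult APdE9 and -2.26 to -2.02 in adult WT arrays, and 1.95 to 2.08 in neonatal APdE9 and 1.39 to 1.93 in neonatal WT arrays. Of 15 mesenchymal markers, 9 rose and 1 fell with age on APdE9 and 10 rose and 1 fell on WT, and in adult cells 2 rose and 6 fell on APdE9. Thy1 fell by 1.88 ± 0.15 and Col1a1 by 1.79 ± 0.16 there (limma adjusted p = 4.37e-06 and 1.33e-05). The mesenchymal list mean was 0.20 to 0.50 in adult APdE9 and 0.74 to 0.93 in adult WT arrays, and -0.64 to -0.39 in neonatal APdE9 and -0.74 to -0.11 in neonatal WT arrays. Cdkn1c and Grb10 had the same order of adult groups above neonatal groups, and adult WT arrays were the highest for Cdkn1c, Grb10 and Meg3 as for this list. Of 11 measured oligodendrocyte markers, 5 rose on APdE9 in adult cells and 1 rose and 2 fell in neonatal cells, and with age 2 rose and 3 fell on APdE9 and 5 fell on WT. Their list mean was -0.14 to -0.04 in adult APdE9 and -0.56 to -0.55 in adult WT arrays, and 0.32 to 0.39 in neonatal APdE9 and 0.29 to 0.42 in neonatal WT arrays. Adult WT arrays were the lowest for this list and for the microglial list, as for Ndn and Igf2. Of 12 neuronal markers 1 fell on APdE9 in adult cells and none was called in neonatal cells by limma. An unadjusted p under 0.05 was found there for 2 of them and for 2695 of all 18193 genes. With age 1 rose and 2 fell on APdE9 (25.0%), and 2 rose and 3 fell on WT (41.7%). Of 12 endothelial and mural markers 1 rose and 1 fell on APdE9 in adult cells and 2 rose in neonatal cells. With age 3 of these rose and 2 fell on APdE9 (41.7%), and 4 rose and 3 fell on WT (58.3%). The part of these cells in the imprinted genes' values was not tested, and since levels were removed by the centring, no marker could be shown to be present or absent.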

How the data were processed

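RNA was measured on 12 one-colour Affymetrix arrays, 3 per group. The deposited series file holds RMA signals, per the submitters' processing notes, with no version given. The deposited columns of 8 arrays hold log2 values, assuming the usual RMA scale, since no base is stated. The 4 other deposited columns could be recorded only as a score, since 6 of their values exceed 100 and seem to lack a decimal point. These 6 were left out, and the remaining values were used on the same log2 scale. All 45031 complete probe sets have a median of 0 across arrays (within 1e-06), so the authors' centring took out levels, and no signal over background can be given. The number of arrays limits the precision. No scanner files were used here.

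Of 45101 probe sets, 64 controls were left out. Of the rest, 34945 had 1 annotated gene, 932 had several and 9160 had none, and 34741 of the first matched RefSeq symbols. Single-gene probe sets of a gene were averaged, leaving out those with a damaged value where others existed. A model of 4 group means was fitted with limma (3.58.1) under R (4.3.3), tables being read by the data.table package (1.17.8). It had residual degrees of freedom of 8 and prior degrees of freedom of 3.97, and Benjamini-Hochberg adjustment ran over 18193 genes, with calls at 0.05. Labels call the arrays biological replicates but do not say whether cultures or mice were separate, so errors may be partly technical.

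The members and gene lists were chosen with earlier results of these data known. Named were all members, Igf2 and Igf2r, the called relatives, and the 2 genes most like each member. Called imprinted genes were named mainly from those with the largest changes (4 each way per comparison). Others were named after their values were seen: some neighbours, LOC102631979 and some of the remaining called imprinted genes. Called genes that are not named enter the counts only. Pairing by replicate number was judged from correlated deviations about the group means (over 0.1 for each number). It was met between sections in neonatal cells (0.305, 0.147 and 0.519) and between ages on APdE9 (0.460, 0.206 and 0.473). It was not met in adult cells (-0.147 for replicate 2) or on WT sections (0.0247). Each array was left out in turn. Other alternatives changed the scaling (quantile, median), weighted arrays, blocked on the replicate number, used robust variances or the compared arrays alone, took the most variable probe set, filtered on SD (40% of genes dropped), tightened thresholds or restored decimals. Array annotation was GEO's. Promoter windows came from RefSeq.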

Additional observations from a re-analysis of the deposited data

Results flagged for a closer look

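The section effect, APdE9 minus WT, differed between adult and neonatal cells by the interaction term of the limma fit for 14 of the genes read here. They were 2 of the 9 listed genes, 2 of 12 relatives (16.7%) and 10 of 50 other imprinted genes (20.0%). Over all 18193 genes the term was called for 10.1%, and no test compares these shares. For the listed genes, chosen on these data, the values are a description: 1.38 for Nnat, lower on APdE9 in neonatal cells by 1.59 and closer in adult cells, and -1.17 for Meg3, which was lower on APdE9 in adult cells. Among maternally expressed genes the term was -1.96 for Rian, -1.90 for Copg2, -0.61 for Gnas and 0.53 for Slc22a18 (adjusted p = 0.00144, 0.00144, 0.0464 and 0.0322). Among paternally expressed genes it was 1.68 for Igf2 and 0.67 for Nap1l5 (adjusted p = 0.00131 and 0.0376). Among genes whose imprinting is known mainly from placenta it was -1.94 for Gatm, 1.21 for Ampd3, 0.68 for Qpct and 0.50 for Nap1l4 (adjusted p = 0.00112, 0.00187, 0.0200 and 0.0201). Of the relatives it was 0.72 for Abhd6 and -0.66 for Grb14 (adjusted p = 0.00340 and 0.00641). The calls of Gnas, Nap1l5 and Qpct were lost under quantile normalization (adjusted p = 0.0643, 0.120 and 0.0588), and single arrays ended the calls of Gnas in 10 of 12 fits, Nap1l5 and Slc22a18 in 9 each, and Qpct and Nap1l4 in 2 each (adjusted p up to 0.116, 0.0985, 0.0873, 0.0577 and 0.0582; Gnas and Nap1l4 without adult WT replicate 2, the others without neonatal WT replicate 2). Groups of 3 arrays are too small for a check of single outlying arrays.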

How the results depend on the processing

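No difference of the listed genes changed sign with a call: of their values under the alternatives, 980 kept their side of the threshold, 11 gained a call and 30 lost one. Counts are given as all genes, listed genes and other imprinted genes. Leaving out 1 array gave 2174 to 3382, 3 to 4 and 11 to 13 called between sections in adult cells, and 263 to 761, 1 to 2 and 1 to 6 in neonatal cells. It gave 1208 to 1811, 2 to 3 and 6 to 9 for the difference of section effects. Between ages it gave 4426 to 5499, 5 to 6 and 17 to 23 on WT sections, and 3488 to 4386, 5 to 5 and 12 to 17 on APdE9. The neonatal count fell to 263 without neonatal WT replicate 2, and to 411 or 436 with neonatal APdE9 replicate 1 or 2 left out. The difference count fell to 1208 without neonatal WT replicate 2 and 1218 without adult WT replicate 2. Neonatal listed genes fell to 1 without neonatal WT replicate 1 or 2, neonatal APdE9 replicate 2 or 3, adult WT replicate 3 or adult APdE9 replicate 2. Other imprinted genes in neonatal cells fell to 1 without neonatal WT or neonatal APdE9 replicate 2 and to 2 without neonatal APdE9 replicate 3, and in the difference to 6 without replicate 2 of neonatal WT, neonatal APdE9 or adult WT. With array weights 2160 genes and 9 other imprinted genes were called in neonatal cells, 3427 genes in the difference and 32 other imprinted genes by age on WT. With only the arrays compared, neonatal counts were 272, 1 and 1. With the probe set of the largest SD, 1 listed gene was called in neonatal cells. At an adjusted p under 0.01, counts were 1844 genes and 2 listed genes in adult cells, 248, 1 and 1 in neonatal cells, 818 genes and 5 other imprinted genes in the difference, and 2850 genes by age on APdE9. With a log2 difference of at least 1 they were 521, 1 and 3 in adult cells, 78, 1 and 1 in neonatal cells, 473 genes and 5 other imprinted genes in the difference, 1386 genes and 8 other imprinted genes by age on WT, and 1082, 2 and 5 by age on APdE9. Both thresholds are stricter by construction, and the cause of the other changes was not tested.

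In the replicate block fit, where numbers pair the samples, 1013 genes, 2 listed genes and 7 other imprinted genes were called in neonatal cells, gaining Copg2 and Ampd3 (adjusted p = 0.0473 and 0.0428), and 5079, 5 and 18 by age on APdE9. There Kcnq1ot1, Impact, Cdkn1a, Grb7 and Maged2 gained a call and Slc22a2 lost its call (adjusted p = 0.0529). The block changed no call of the listed genes in these comparisons. Where the samples share only a number it called 4217, 5 and 15 between sections in adult cells, 6216, 6 and 24 by age on WT, and 2623, 3 and 11 for the difference, adding Plagl1 in adult cells and Ndn in the difference. Because levels were removed, low signals could not be filtered, and Nnat, Mest and Cdkn1c rest on 1 probe set each.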

Other observations

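Genes whose imprinting is described mainly in mouse placenta or yolk sac formed a list of 16, of which 15 were measured. Between sections in adult cells 5 rose and 2 fell on APdE9 (46.7% called, against 17.7% of all genes), and in neonatal cells 2 rose (13.3%, against 3.76%). Without 1 array, the adult section calls of Ppp1r9a and Slc22a2 were lost in 11 and 4 of 12 fits. Their limma adjusted p reached 0.141, without adult WT replicate 3, and 0.0911, without adult APdE9 replicate 3. With age 4 rose and 3 fell on APdE9 sections (46.7%, against 23.5%), and 3 rose and 5 fell on WT sections (53.3%, against 30.1%). The APdE9 age call of Slc22a2 was lost in 9 of 12 fits without 1 array (limma adjusted p up to 0.187, without adult APdE9 replicate 2). Gatm, the first enzyme of creatine synthesis, was -2.002, -2.10 and -2.33 in adult APdE9 arrays and -1.56, -1.998 and -2.04 in adult WT arrays, against 3.47, 3.52 and 3.72 in neonatal APdE9 and 2.42, 1.56 and 1.75 in neonatal WT arrays. Adult minus neonatal was -5.72 ± 0.20 on APdE9 and -3.78 ± 0.20 on WT (limma adjusted p = 1.14e-09 and 2.34e-08). Gatm rose by 1.66 ± 0.20 on APdE9 in neonatal cells (adjusted p = 0.000906), where Nnat was lower. Pon3, a paraoxonase gene, was 0.57, 0.60 and 0.66 in adult APdE9 arrays and 0.75, 1.00 and 0.83 in adult WT arrays, and between -1.08 and -0.57 in all 6 neonatal arrays. It rose with age by 1.39 ± 0.12 on APdE9 and 1.80 ± 0.12 on WT (adjusted p = 3.19e-06 and 2.25e-07).

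Qpct, which encodes the glutaminyl cyclase that forms N-terminal pyroglutamate on peptides, was 0.24, 0.02 and -0.07 in adult APdE9 arrays and -0.94, -0.75 and -0.85 in adult WT arrays. It was 0.49, 0.15 and 0.11 in neonatal APdE9 arrays and -0.03, 0.11 and -0.02 in neonatal WT arrays. It rose by 0.91 ± 0.11 on APdE9 in adult cells (limma adjusted p = 0.000155), and the neonatal difference was 0.23 ± 0.11 (adjusted p = 0.385). Sfmbt2, a Polycomb-group gene, fell by 0.70 ± 0.11 on APdE9 in adult cells and rose by 0.75 ± 0.11 with age on WT (adjusted p = 0.000937 and 0.000223). Dcn, which encodes the matrix proteoglycan decorin, rose on APdE9 at both ages, by 0.53 ± 0.10 in adult and 0.43 ± 0.10 in neonatal cells (adjusted p = 0.00310 and 0.0374). The neonatal call was lost in 8 of 12 fits without 1 array (adjusted p up to 0.124, without neonatal APdE9 replicate 3). Dcn is also expressed by mesenchymal cells, whose marker list moved between these groups, and the part of such cells was not tested.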
